A study of Mus musculus with 8 samples.

Results

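The genes described here carry inhibitory transmission by GABA and glycine: 27 genes matched by symbol to a fixed list, out of the 55401 genes in the deposited expression table. They comprise 12 genes for GABA-A receptor subunits, both GABA-B receptor subunit genes, 4 glycine receptor subunit genes, the scaffold gene Gphn, 3 genes for making and loading GABA, 3 plasma membrane transporter genes and 2 chloride cotransporter genes. Genes of further GABA-A receptor subunits are not analysed here, and further transporter genes entered only through the pathway and marker lists. The measurements are RNA sequencing of ribosomal RNA-depleted total RNA from 8 mice at postnatal day 19. PLX3397, an inhibitor of the CSF1 receptor kinase that microglia need to survive, was given by gavage from day 9 to day 15 to 4 pups, and 4 control pups were gavaged with vehicle over the same days, so that both groups share the handling and were sampled 4 days after the last gavage. Each group held 2 females (libraries F1 and F2) and 2 males (M1 and M2). The labels name no strain and no allele. The tissue label reads brain while the design text speaks of hypothalami, which the samples were taken to be, each from a separate mouse. PLX3397 also acts on related kinases such as KIT and FLT3, so the treatment is not specific to microglia.

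GABA is the main inhibitory transmitter of the mature forebrain and the transmitter of most neurons of the arcuate nucleus, including AgRP neurons, while glycine acts mainly in the hindbrain and spinal cord and at some hypothalamic synapses. GABA-A and glycine receptors are pentameric chloride channels, and the direction of their current is set by chloride: the cotransporter NKCC1 (Slc12a2) brings chloride into the cell and KCC2 (Slc12a5) carries it out of neurons. Over early postnatal life neurons gain KCC2, and GABA turns from depolarizing to hyperpolarizing. GABA-B receptors are obligate heterodimers that signal through G proteins.

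Csf1r, which encodes the kinase PLX3397 blocks, was at 0.962, 0.905, 0.767 and 0.183 FPKM in PLX3397 libraries F1, F2, M1 and M2, against 11.7, 12.3, 12.1 and 12.9 FPKM in the vehicle libraries in the same order (log2 fold change -4.18 ± 0.43, standard error, edgeR adjusted p = 0.00526). FPKM are fragments per kilobase of gene model, scaled to library size. Total counts ran from 55900335 to 67487391 in PLX3397 libraries and from 54115300 to 60001808 in vehicle libraries. All 14 hypothalamic markers on a fixed list were detected. They summed to 676 to 1193 FPKM in PLX3397 libraries and 896 to 1436 FPKM in vehicle libraries. Of 6 hindbrain and spinal cord markers 4 had no counts in any library. Markers listed for other regions were present. The 6 striatum markers summed to 24.3 to 26.5 FPKM with PLX3397 and 23.3 to 29.7 FPKM with vehicle. The 6 cerebellar granule cell markers summed to 17.3 to 50.8 and 19.2 to 49.0 FPKM. Of 9 thalamus markers 7 were tested and Prkcd alone fell (log2 fold change -0.54, edgeR adjusted p = 0.0229). The part of neighbouring regions in the group differences was not tested. Vehicle F1 stood apart with 3047 FPKM over 7 pituitary markers, against 2.20 to 12.5 FPKM in the other libraries. The same library had the highest hypothalamic marker sum, 1436 FPKM, and the part of pituitary transcripts in that sum was not tested. PLX3397 M2 stood apart with the lowest sum over 12 microglial markers, 10.3 FPKM, against 18.9 to 22.2 FPKM in the other PLX3397 libraries and 135 to 143 FPKM in vehicle libraries. Below, the values of a group are always given in the order F1, F2, M1 and M2.

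Of the 27 genes, 24 passed the expression minimum of a mean of 0.5 FPKM and were tested. With edgeR's quasi-likelihood test, adjusted over all 16894 tested genes by the Benjamini-Hochberg method with a threshold of 0.05, 1 member fell (Slc12a2) and none rose; 2.14% of all tested genes passed, 1.83% as lower and 0.308% as higher. At an unadjusted p below 0.05 there were 8 members of 24 (33.3%), against 16.2% of all tested genes. These 8 were Slc12a2, Glra3, Gabra2, Gabrq, Glrb, Gabra4, Slc32a1 and Gabrg1. DESeq2 passed 5 members, 4 higher (Gabra2, Glra3, Glrb and Gabrq) and 1 lower (Slc12a2), where it passed 6.63% of 16566 genes, 2.07% as higher and 4.56% as lower. The log2 fold change was positive for 15 of the 24 members (62.5%) and for 49.4% of all tested genes. Its median was 0.05 over the members and -0.00 over all tested genes, and its median size was 0.107 for members and 0.109 for all genes. In 2 members (Gabra2 and Glra3) all 4 PLX3397 libraries lay above all 4 vehicle libraries, as in 4.17% of tested genes, and in 1 member (Slc12a2) all lay below, as in 6.89%.

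**Figure D1:**
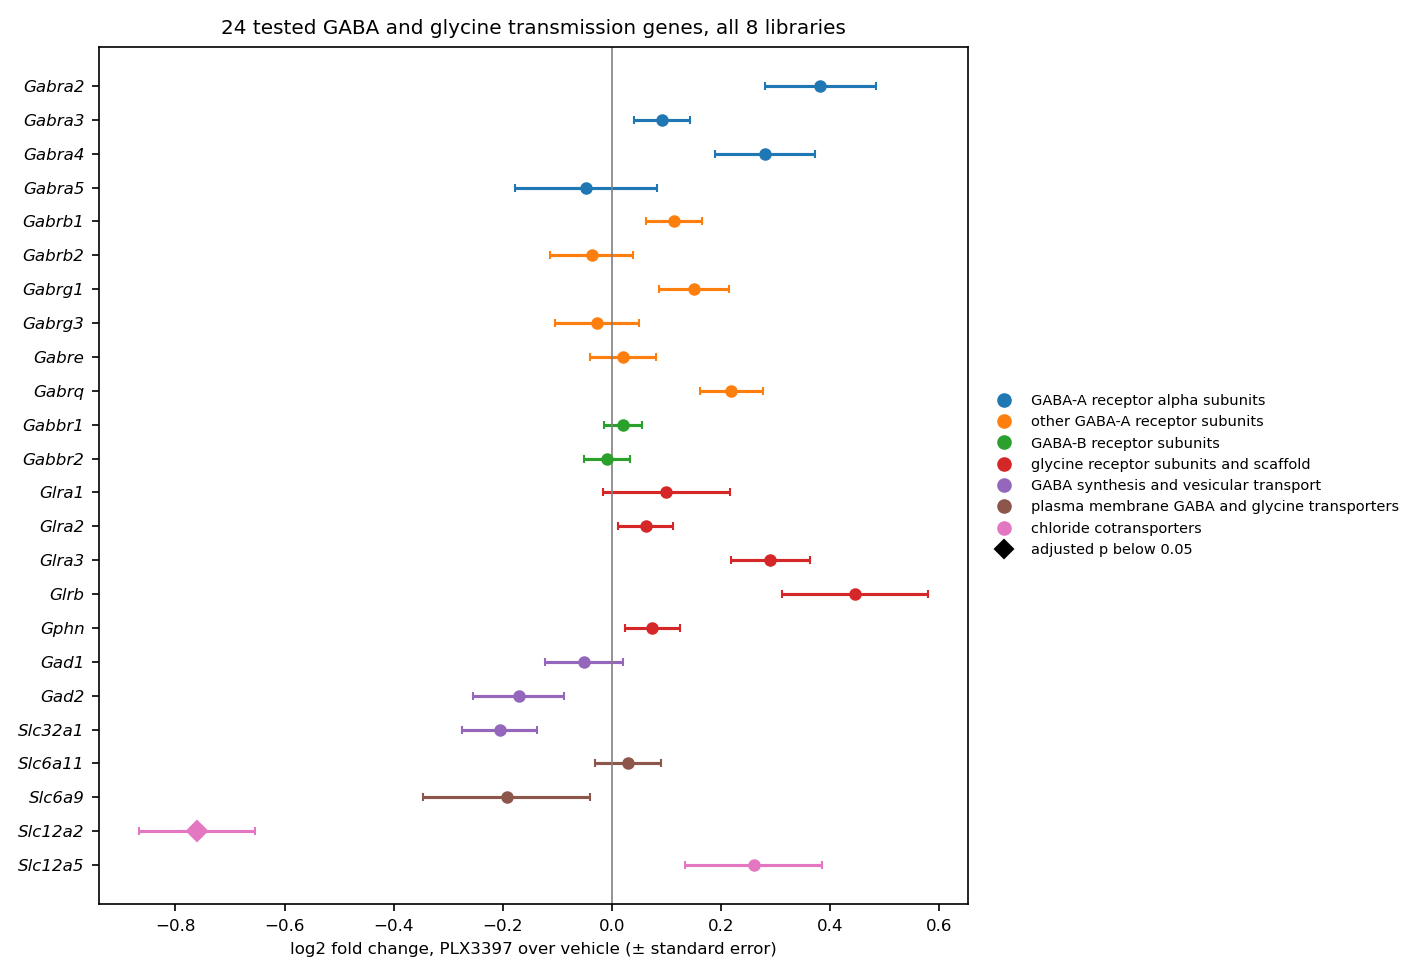
Log2 fold change, PLX3397 over vehicle, of the 24 tested members (points, horizontal axis) with the standard error from edgeR (bars), by class (colour). Slc12a2 at -0.76 is the lone diamond, the mark of an adjusted p below 0.05, and 15 of the 24 points lie right of 0.

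The member that passed was the chloride importer. Slc12a2 (chromosome 18, 57878678 to 57946821, mm10) was at 4.84, 3.96, 4.51 and 3.90 FPKM in PLX3397 libraries, against 6.78, 6.36, 7.91 and 8.41 FPKM in vehicle libraries. The groups did not overlap, and the vehicle males had the highest levels. The mean was 4.30 ± 0.45 FPKM with PLX3397 and 7.37 ± 0.957 FPKM with vehicle (SD, n = 4 each), a log2 fold change of -0.76 ± 0.11 (edgeR adjusted p = 0.0155), or 1.69-fold lower. The call was kept under 16 of 22 alternative settings and the sign under all of them. Among the settings that ended the call were leaving out PLX3397 F2 (adjusted p = 0.0642), PLX3397 M1 (0.0663), vehicle M1 (0.0591) or vehicle M2 (0.0501), and leaving out both vehicle F1 and PLX3397 M2 (log2 fold change -0.69, edgeR adjusted p = 0.105).

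The chloride extruder did not pass. Slc12a5 (chromosome 2, 164960802 to 164999727) was at 60.0, 64.2, 67.8 and 97.6 FPKM in PLX3397 libraries, against 57.5, 62.0, 60.1 and 61.0 FPKM in vehicle libraries. PLX3397 M2 alone lay far above the rest, and the groups overlapped (log2 fold change 0.26 ± 0.13, edgeR adjusted p = 0.366). Without PLX3397 M2 the log2 fold change was 0.11 (edgeR adjusted p = 0.38). The ratio of Slc12a5 to Slc12a2 FPKM was 12.4, 16.2, 15.1 and 25.0 in PLX3397 libraries and 8.48, 9.75, 7.59 and 7.25 in vehicle libraries. The groups of this ratio did not overlap, with a mean of 17.2 ± 5.49 for PLX3397 and 8.27 ± 1.11 for vehicle (SD, n = 4 each). Slc12a2 alone already separated the groups, so this is not a result apart from Slc12a2. PLX3397 M2, with its high Slc12a5, raised the PLX3397 mean of the ratio.

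Slc12a2 is also expressed by glia, including cells of the oligodendrocyte lineage, and transcripts of that lineage moved with it. All 10 oligodendrocyte precursor markers had a negative sign and 6 fell (the smallest p values being those of Vcan, Neu4, Gpr17 and Sox10). Their summed level was 113, 113, 108 and 81.0 FPKM in PLX3397 libraries, against 207, 197, 246 and 266 FPKM in vehicle libraries. Of 12 myelin markers 4 fell (Myrf, Cnp, Mbp and Mag) and all were negative in sign; they summed to 850, 528, 655 and 373 FPKM in PLX3397 libraries, against 1148, 1170, 1528 and 1713 FPKM in vehicle libraries. As for Slc12a2, the highest sums of both lists were those of the vehicle males, and the lowest was that of PLX3397 M2. Of the 12 microglial markers 9 fell, with a median log2 fold change of -3.91. Of 12 astrocyte markers none passed with edgeR and 3 had an unadjusted p below 0.05 (median log2 fold change 0.04). By sign 8 were positive and 4 negative. Of the 3, Aqp4, the water channel of astrocyte endfeet, was at -0.39 without overlap between the groups (edgeR adjusted p = 0.113). The others were positive: Slc7a11 at 0.27, also without overlap (edgeR adjusted p = 0.126), and Aldoc at 0.21 (edgeR adjusted p = 0.184). Of 12 pan-neuronal markers Nefl alone rose, 11 were positive in sign and 7 had an unadjusted p below 0.05 (median 0.13). Over all tested genes 16.2% had an unadjusted p below 0.05. Of 8 meningeal fibroblast markers 2 rose and 5 had an unadjusted p below 0.05 (median 0.46). These 2 were Slc6a13, which encodes the GABA transporter GAT2 of the meninges (log2 fold change 0.73, edgeR adjusted p = 0.0218), and the retinoic acid enzyme gene Aldh1a2 (0.35, edgeR adjusted p = 0.0488). Both overlapped between the groups and were higher in males within each group, and sex was a covariate of the fit. Slc6a13 was at 8.32, 8.03, 12.2 and 12.5 FPKM with PLX3397, against 3.83, 5.24, 8.01 and 8.24 FPKM with vehicle. The 8 meningeal markers summed to 58.9 to 87.0 FPKM with PLX3397 and 41.0 to 59.1 FPKM with vehicle. The part of these cell types in the Slc12a2 difference was not tested, and in such bulk samples fewer cells of a type and less RNA per cell cannot be told apart.

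**Figure D2:**
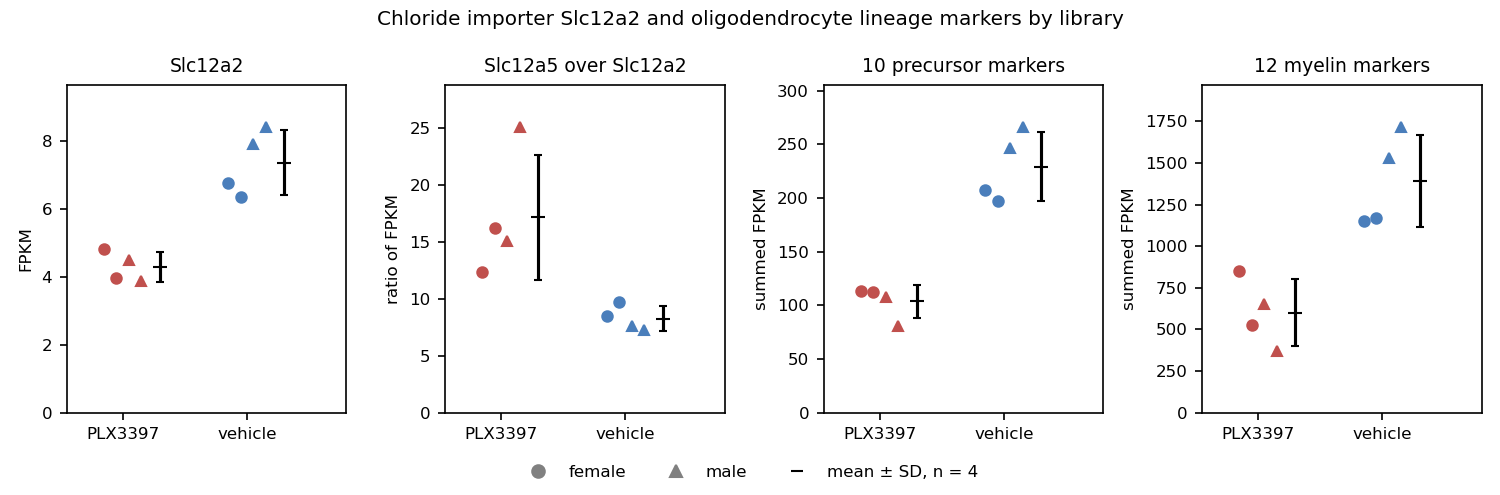
By library, from left to right: Slc12a2 (FPKM), the ratio of Slc12a5 to Slc12a2 FPKM, and the summed FPKM of 10 oligodendrocyte precursor and 12 myelin markers; circles are females, triangles males, and bars the mean ± SD of 4 libraries. PLX3397 libraries lie below vehicle libraries for Slc12a2 (3.90 to 4.84 against 6.36 to 8.41 FPKM) and both marker sums, and above them for the ratio.

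Relatives and regulators of these cotransporters came from a list of 11 genes, of which 9 were tested and none passed with edgeR. At an unadjusted p below 0.05 there were 5 of the 9, against 16.2% of all tested genes. By sign 6 of the 9 were negative, and the median log2 fold change was -0.20. Wnk1, a kinase that raises NKCC1 and lowers KCC2 activity through SPAK and OSR1, was at 6.17, 5.60, 6.29 and 5.81 FPKM with PLX3397, against 6.75, 7.14, 8.41 and 7.63 FPKM with vehicle. These groups did not overlap (log2 fold change -0.32 ± 0.06, edgeR adjusted p = 0.0535), nor did those of Stk39, Slc12a9 and Slc12a4, all lower with PLX3397. Of all tested genes 6.89% were lower in this way. Stk39, which encodes SPAK, averaged 9.31 ± 0.546 FPKM with PLX3397 and 10.6 ± 0.566 FPKM with vehicle (SD, n = 4 each; edgeR adjusted p = 0.226). Slc12a9 (log2 fold change -0.20) and the potassium-chloride cotransporter gene Slc12a7 (-0.23) had edgeR adjusted p values of 0.142 and 0.219.

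Among receptor genes, 4 had a positive difference that passed with DESeq2 and not with edgeR: Gabra2 and Gabrq for GABA-A receptors and Glra3 and Glrb for glycine receptors. They were picked for display after their values were seen. The 250 bases before the RefSeq transcription start of each (build GRCm38.p6) are shown because these members share a direction. Capitals mark every match, on either strand, to the GC box GGGCGG (reverse complement CCGCCC), which Sp-family factors bind. Glrb lies on the minus strand (chr3:80913661-80913910), Gabra2 on the minus strand (chr5:71095850-71096099), Glra3 on the plus strand (chr8:55940168-55940417) and Gabrq on the plus strand (chrX:72824928-72825177).
Glrb: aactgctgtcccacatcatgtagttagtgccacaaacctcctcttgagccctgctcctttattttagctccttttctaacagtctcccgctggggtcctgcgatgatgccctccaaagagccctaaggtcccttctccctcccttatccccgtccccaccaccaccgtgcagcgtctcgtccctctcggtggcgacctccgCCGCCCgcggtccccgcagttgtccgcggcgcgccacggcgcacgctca
Gabra2: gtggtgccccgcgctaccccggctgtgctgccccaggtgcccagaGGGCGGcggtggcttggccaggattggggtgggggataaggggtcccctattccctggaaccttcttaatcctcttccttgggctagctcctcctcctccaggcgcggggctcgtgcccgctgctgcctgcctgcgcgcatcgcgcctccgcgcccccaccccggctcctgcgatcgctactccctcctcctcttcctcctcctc
Glra3: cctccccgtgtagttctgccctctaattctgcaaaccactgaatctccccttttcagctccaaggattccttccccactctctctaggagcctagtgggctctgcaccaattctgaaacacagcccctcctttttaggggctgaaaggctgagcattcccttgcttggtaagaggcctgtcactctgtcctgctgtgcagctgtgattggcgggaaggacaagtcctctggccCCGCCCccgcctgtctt
Gabrq: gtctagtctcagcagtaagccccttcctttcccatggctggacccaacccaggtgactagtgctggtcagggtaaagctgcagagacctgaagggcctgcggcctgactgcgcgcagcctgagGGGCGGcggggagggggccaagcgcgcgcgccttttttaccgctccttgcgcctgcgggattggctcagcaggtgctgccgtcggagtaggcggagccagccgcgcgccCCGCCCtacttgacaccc
Gabrq held 2 matches and the other 3 genes 1 each, and 32.7% of 32851 mouse promoter windows of this length hold at least 1. Windows of Gad1, Gad2, Slc32a1 and Slc12a5, not shown, were searched as well. Gad1, whose log2 fold change was negative, also held 1 match, as did start 2 of Slc12a5. Its start 1, Gad2 and Slc32a1 held 0. None of the 4 windows shown held the letters TATAAA, TGACGTCA or CACGTG, found on either strand in 12.4%, 1.55% and 6.02% of all windows. Glrb, Gabra2 and Gabrq had 20, 18 and 19 CG dinucleotides and Glra3 had 4, where the median over all windows was 6. A match is a description of the letters and not a site of binding. Of the 27 members, 24 had an entry in the promoter table.

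Alpha subunits set much of a GABA-A receptor's place and pharmacology. Gabra2, an alpha subunit that gives receptors high benzodiazepine affinity, was at 6.32, 7.83, 5.46 and 6.17 FPKM with PLX3397, against 4.96, 5.25, 4.35 and 5.23 FPKM with vehicle. The lowest PLX3397 library lay just above the highest vehicle library (log2 fold change 0.38 ± 0.10, edgeR adjusted p = 0.123, DESeq2 adjusted p = 0.0126). Gabra4, which joins delta-containing receptors outside the synapse, was at 4.63, 4.59, 4.72 and 5.15 FPKM with PLX3397, against 4.62, 4.21, 3.45 and 3.61 FPKM with vehicle. The vehicle males were the low samples, and the groups overlapped at vehicle F1 (log2 fold change 0.28 ± 0.09, edgeR adjusted p = 0.192). Gabra5, also largely extrasynaptic, was at 17.2, 18.9, 25.2 and 21.4 FPKM with PLX3397, against 20.8, 24.2, 22.5 and 17.9 FPKM with vehicle, with no order between the groups (log2 fold change -0.05 ± 0.13, edgeR adjusted p = 0.899). Gabra3, the most abundant of these alpha subunit genes, averaged 27.7 ± 0.533 FPKM with PLX3397 and 26.1 ± 1.62 FPKM with vehicle (SD, n = 4 each; edgeR adjusted p = 0.446). Gabra6, the alpha subunit of cerebellar granule cells, had a count of 0 in all 8 libraries, which allows up to 0.0445 to 0.0554 CPM (counts scaled to library size) depending on the library. Summed over the class, alpha subunit genes reached 55.3 to 62.9 FPKM with PLX3397 and 51.3 to 61.3 FPKM with vehicle.

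The theta subunit gene Gabrq and the epsilon subunit gene Gabre, whose receptors are known from the hypothalamus and brainstem monoamine neurons, had mean levels of 27.7 and 18.0 FPKM over all 8 libraries. Gabrq was at 31.4, 30.5, 27.0 and 30.1 FPKM with PLX3397, against 25.6, 27.3, 26.5 and 23.3 FPKM with vehicle. Only PLX3397 M1 lay within the vehicle range (log2 fold change 0.22 ± 0.06, edgeR adjusted p = 0.125, DESeq2 adjusted p = 0.0322). Gabre averaged 18.1 ± 1.06 FPKM with PLX3397 and 18.0 ± 0.713 FPKM with vehicle (SD, n = 4 each; edgeR adjusted p = 0.906). Gabrg1, a gamma subunit gene of hypothalamic neurons and glia, was at 7.07, 7.88, 7.97 and 9.21 FPKM with PLX3397, against 6.89, 7.18, 7.41 and 7.56 FPKM with vehicle (log2 fold change 0.15 ± 0.06, edgeR adjusted p = 0.307). PLX3397 F1 lay within the vehicle range and the other PLX3397 libraries lay above it. The beta subunit gene Gabrb1 averaged 12.5 ± 0.573 FPKM with PLX3397 and 11.7 ± 0.539 FPKM with vehicle (edgeR adjusted p = 0.326). Gabrb2 averaged 8.52 ± 0.393 FPKM with PLX3397 and 8.80 ± 0.826 FPKM with vehicle (edgeR adjusted p = 0.859). The gamma subunit gene Gabrg3 averaged 4.04 ± 0.149 FPKM with PLX3397 and 4.14 ± 0.446 FPKM with vehicle (SD, n = 4 each; edgeR adjusted p = 0.898). Gabrd, the extrasynaptic delta subunit gene, was below the expression minimum, at 0.334, 0.314, 0.594 and 0.349 FPKM with PLX3397 and 0.215, 0.432, 0.351 and 0.408 FPKM with vehicle.

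Many GABA-A receptor subunit genes sit in clusters. The chromosome 5 cluster spans 1398 kb, and its 4 members all had a positive log2 fold change: 0.15 for Gabrg1, 0.38 for Gabra2, 0.28 for Gabra4 and 0.11 for Gabrb1, none of them passing with edgeR. On the X chromosome Gabre, Gabra3 and Gabrq lie within 587 kb, with log2 fold changes of 0.02, 0.09 and 0.22. Gabrg3 and Gabra5, within 794 kb on chromosome 7, were at -0.03 and -0.05. Gabra4 and Gabrb1 share 46 exon bases on opposite strands, and no source used here says whether reads were counted by strand.

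The glycine receptor genes and their scaffold all had a positive sign, and none passed with edgeR over all 8 libraries. Their summed level was 73.1 to 73.9 FPKM in PLX3397 libraries, against 68.8, 70.9, 57.7 and 55.3 FPKM in vehicle libraries, so that all PLX3397 libraries lay above all vehicle libraries. The lowest sums were those of the vehicle males, which were low in Glrb. Glra1, Glra2 and Gphn each overlapped between the groups. The most abundant of the 5 genes was Glrb, the beta subunit that ties glycine receptors to gephyrin. Glrb (chromosome 3, 80843599 to 80913660, minus strand) was at 33.9, 34.1, 34.7 and 31.3 FPKM with PLX3397, against 31.4, 33.0, 19.4 and 18.5 FPKM with vehicle. The vehicle males alone stood apart, well below the other 6 libraries, while PLX3397 and vehicle females were close together. Over all libraries the log2 fold change was 0.45 ± 0.13 (edgeR adjusted p = 0.165, DESeq2 adjusted p = 0.0214). No annotated exon of another gene overlaps the exons of Glrb.

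Glra3, an alpha subunit gene, was at 3.79, 3.78, 3.89 and 4.61 FPKM with PLX3397, against 3.29, 3.36, 3.38 and 3.16 FPKM with vehicle. The groups did not overlap, and PLX3397 M2 was the highest (log2 fold change 0.29 ± 0.07, edgeR adjusted p = 0.108, DESeq2 adjusted p = 0.0132). Glra2, the alpha subunit gene of fetal and immature neurons, was more abundant and averaged 13.4 ± 0.538 FPKM with PLX3397 and 12.9 ± 0.501 FPKM with vehicle (edgeR adjusted p = 0.601). The ratio of Glra2 to Glra3 FPKM was 3.35 ± 0.219 with PLX3397 and 3.92 ± 0.216 with vehicle (SD, n = 4 each). Its groups did not overlap, nor did those of Glra3 alone. Glra1, the main alpha subunit gene of the adult spinal cord, averaged 3.67 ± 0.472 FPKM with PLX3397 and 3.45 ± 0.253 FPKM with vehicle (edgeR adjusted p = 0.731). Gphn, which encodes gephyrin, averaged 18.8 ± 0.668 FPKM with PLX3397 and 17.9 ± 0.767 FPKM with vehicle (SD, n = 4 each; edgeR adjusted p = 0.528).

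**Figure D3:**
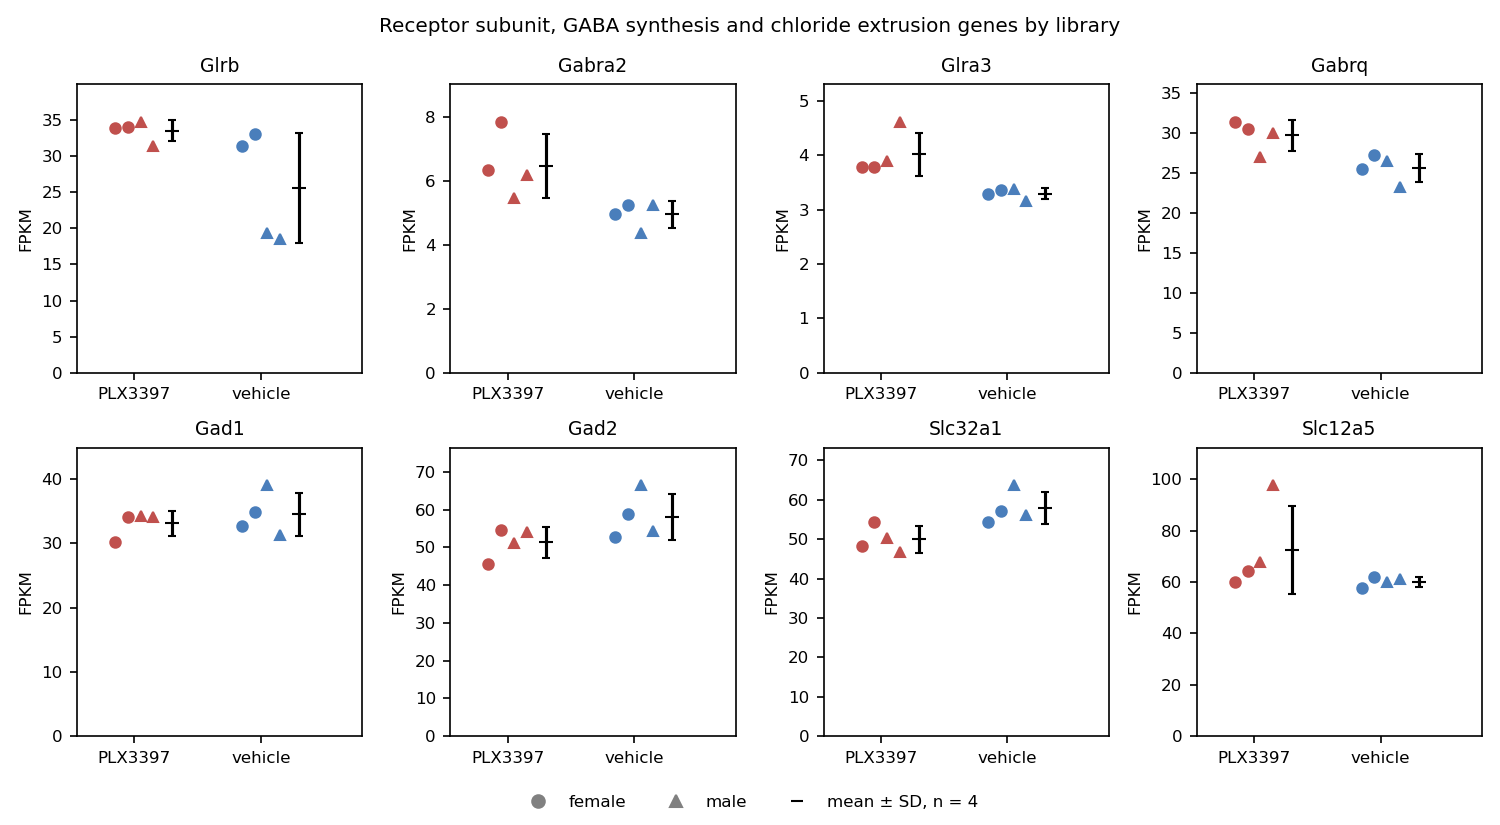
FPKM by library of 8 members; circles are females, triangles males, and bars the mean ± SD of 4 libraries, with PLX3397 left of vehicle in each panel. The vehicle males hold the 2 low Glrb values (19.4 and 18.5 FPKM), Glra3 and Gabra2 show no overlap between groups, and Slc12a5 is highest in PLX3397 M2 (97.6 FPKM).

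Neither GABA-B receptor gene passed, and their group means differed by less than the spread between libraries. Gabbr1, whose product binds GABA, was at 95.0, 96.1, 97.0 and 98.7 FPKM with PLX3397 and averaged 96.7 ± 1.58 FPKM, against 95.9 ± 3.23 FPKM with vehicle (SD, n = 4 each), a log2 fold change of 0.02 ± 0.03 with an adjusted p of 0.829 in edgeR. Gabbr2, whose product couples to the G protein, averaged 33.8 ± 0.80 FPKM with PLX3397 and 34.2 ± 1.59 FPKM with vehicle (log2 fold change -0.01 ± 0.04, edgeR adjusted p = 0.948). The ratio of Gabbr1 to Gabbr2 FPKM overlapped between the groups, at 2.86 ± 0.0681 with PLX3397 and 2.80 ± 0.0402 with vehicle. Of 10 partner genes (KCTD auxiliary subunits, GIRK channels and others) none passed with edgeR, 2 had an unadjusted p below 0.05, and the median log2 fold change was 0.14. These were Ajap1, which binds the receptor at the presynapse (0.20, edgeR adjusted p = 0.199), and the GIRK channel gene Kcnj9 (0.16, edgeR adjusted p = 0.246).

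The genes for making and loading GABA all had a negative sign and none passed. Gad1 and Gad2 encode the glutamate decarboxylases that make GABA, and Slc32a1 the vesicular transporter that loads GABA and glycine. Slc32a1 was at 48.3, 54.4, 50.2 and 46.7 FPKM with PLX3397, against 54.4, 57.3, 63.6 and 56.2 FPKM with vehicle. PLX3397 F2 and vehicle F1 had nearly the same level, and otherwise the PLX3397 libraries were lower (log2 fold change -0.21 ± 0.07, edgeR adjusted p = 0.201). Gad2 was at 45.6, 54.6, 51.2 and 54.1 FPKM with PLX3397, against 52.7, 59.0, 66.4 and 54.4 FPKM with vehicle (log2 fold change -0.17 ± 0.08, edgeR adjusted p = 0.372). Gad1 was at 30.2, 34.1, 34.2 and 34.0 FPKM with PLX3397, against 32.8, 34.9, 39.0 and 31.4 FPKM with vehicle (log2 fold change -0.05 ± 0.07, edgeR adjusted p = 0.785). Vehicle M1 was highest for all 3 genes, and without it the Gad1 log2 fold change turned to 0.01. The ratio of Gad2 to Gad1 FPKM was 1.51, 1.60, 1.50 and 1.59 with PLX3397, against 1.61, 1.69, 1.70 and 1.74 with vehicle, so that all PLX3397 libraries lay below all vehicle libraries by a narrow gap.

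Transcription factors of GABAergic neurons were read beside these genes. Of 11 on the list 8 were tested and none passed with edgeR, nor had an unadjusted p below 0.05; 7 of the 8 had a negative sign, with a median log2 fold change of -0.20. They summed to 21.8 to 27.3 FPKM in PLX3397 libraries and 25.1 to 30.9 FPKM in vehicle libraries, and none of the 11 was at 0 in every library. Dlx5 was at -0.38 (edgeR adjusted p = 0.331) and Dlx1 at -0.35 (edgeR adjusted p = 0.514). Lhx8, below the expression minimum and not tested, was at most 0.0562 FPKM with PLX3397 and at 0.0975 to 1.29 FPKM with vehicle, without overlap. The 3 vesicular glutamate transporter genes summed to 59.1 to 69.5 FPKM with PLX3397 and 53.7 to 59.1 FPKM with vehicle, nearly all of it Slc17a6 (log2 fold change 0.20, edgeR adjusted p = 0.124). Slc17a8 was at -0.32 (edgeR adjusted p = 0.31). Slc17a7, below the expression minimum and not tested, averaged 0.158 ± 0.0361 FPKM with PLX3397 and 0.502 ± 0.231 FPKM with vehicle (SD, n = 4 each). The groups of Slc17a7 did not overlap. The median log2 fold change of the 2 tested genes was -0.06. The part of the sampled mix of neurons in these differences was not tested.

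At the plasma membrane, Slc6a11, the GABA transporter GAT3 of astrocytes, was the most abundant member, at 217, 209, 223 and 201 FPKM with PLX3397, against 196, 209, 201 and 232 FPKM with vehicle. The groups overlapped throughout (log2 fold change 0.03 ± 0.06, edgeR adjusted p = 0.86). Slc6a9, the glial glycine transporter GlyT1, averaged 16.7 ± 2.77 FPKM with PLX3397 and 19.2 ± 3.03 FPKM with vehicle (SD, n = 4 each), a log2 fold change of -0.19 ± 0.15 with an adjusted p of 0.594 in edgeR. Antisense genes that were themselves tested (Ccdc24 and B4galt2) share 27.8% of its exon bases, so its level is uncertain. Slc6a5, the neuronal glycine transporter GlyT2 that marks glycinergic neurons, had 0 to 26 counts per library, with 0 in PLX3397 M2 and vehicle M1, and was not tested.

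The enzymes and carriers around these transmitters were read from a list of 18 genes of breakdown and supply. All 18 were tested, 1 rose and none fell, and the median log2 fold change was -0.03. Glul, the glutamine synthetase of astrocytes that feeds the glutamine used to make GABA, was at 262, 282, 268 and 303 FPKM with PLX3397, against 225, 224, 241 and 237 FPKM with vehicle. The groups did not overlap and averaged 279 ± 18.3 FPKM with PLX3397 and 232 ± 8.87 FPKM with vehicle (SD, n = 4 each), a log2 fold change of 0.27 ± 0.05 with an adjusted p of 0.0316 in edgeR. Its call held under 13 of 22 alternatives but on leaving out a single library only without PLX3397 M1, the other 7 such fits giving edgeR adjusted p values of 0.0528 to 0.109. Phgdh and Psat1, enzymes of the serine synthesis that precedes glycine, had log2 fold changes of -0.36 (edgeR adjusted p = 0.0733) and -0.31 (0.111).

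Of 19 genes of inhibitory synapse assembly and GABA-A receptor trafficking, all tested, 1 rose and none fell, with a median log2 fold change of 0.04. Nsf, an ATPase of membrane fusion that also binds GABA-A receptor beta subunits and their trafficking protein GABARAP, was at 80.4, 80.6, 81.4 and 77.8 FPKM with PLX3397, against 74.2, 73.6, 73.1 and 71.4 FPKM with vehicle. The groups did not overlap and the difference was small (log2 fold change 0.14 ± 0.02, edgeR adjusted p = 0.0335); the call held under 9 of 22 alternatives and was lost in each of the 8 fits that left out a library (adjusted p 0.055 to 0.118) and with limma-trend on FPKM (adjusted p 0.0611 to 0.0625). The 12 pan-neuronal markers had a median of 0.13, and their part in the Nsf difference was not tested. Shisa7, an auxiliary subunit of GABA-A receptors, was at 19.5, 22.5, 20.0 and 23.7 FPKM with PLX3397, against 16.5, 17.3, 16.2 and 17.5 FPKM with vehicle, again without overlap (log2 fold change 0.35 ± 0.07, edgeR adjusted p = 0.0605). Plcl1, a GABARAP-binding trafficking protein, was at -0.22 (edgeR adjusted p = 0.132) and Gabarapl2 at 0.10 (0.187). Over the 4 pathway lists together 2 of 56 tested genes rose and none fell.

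The PLX3397 difference was also read within each sex, from a model with 4 groups of 2 libraries that share an estimate of the spread. In males 2 members passed with edgeR, Slc12a2 and Glrb, where 1.54% of tested genes did. In females none passed, where 0.361% did, and at an unadjusted p below 0.05 there were 3 of 24 members, against 9.56% of genes. With DESeq2 Slc12a2 passed in females (DESeq2 adjusted p = 0.002). The number of all genes that DESeq2 passed there is given below. Glrb in males was at 34.7 and 31.3 FPKM with PLX3397, against 19.4 and 18.5 FPKM with vehicle (log2 fold change 0.79 ± 0.06, edgeR adjusted p = 0.00574), and it passed under all 12 alternatives run for this contrast (adjusted p 4.78e-18 to 0.0379). In females its log2 fold change was 0.10 ± 0.06 (edgeR adjusted p = 0.663). The difference between the sexes, females minus males, was -0.69 ± 0.09, with an unadjusted p of 0.000146 and an adjusted p of 0.0975 in edgeR and an adjusted p of 4.67e-06 in DESeq2; the other 11 alternatives gave no adjusted p under the threshold.

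Slc12a2 was lower in both sexes, at a log2 fold change of -0.97 ± 0.11 in males (edgeR adjusted p = 0.0157) and -0.56 ± 0.11 in females (edgeR adjusted p = 0.168). The male call was lost without PLX3397 M2 (edgeR adjusted p = 0.0824), vehicle M1 (0.0614) or vehicle M2 (0.0896). The difference between the sexes was 0.41 (edgeR adjusted p = 0.819). With edgeR no member passed for that difference, where 0.077% of tested genes did and 6.01% had an unadjusted p below 0.05. At that unadjusted level stood 4 members, Glrb, Slc12a2, Gabra4 and Gabra5. Gabra4 had a log2 fold change of 0.48 in males (edgeR adjusted p = 0.058) and 0.09 in females, a difference of -0.39 (edgeR adjusted p = 0.805). Gabra5 was at 0.20 in males and -0.29 in females, a difference of -0.49 (edgeR adjusted p = 0.819).

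**Figure D4:**
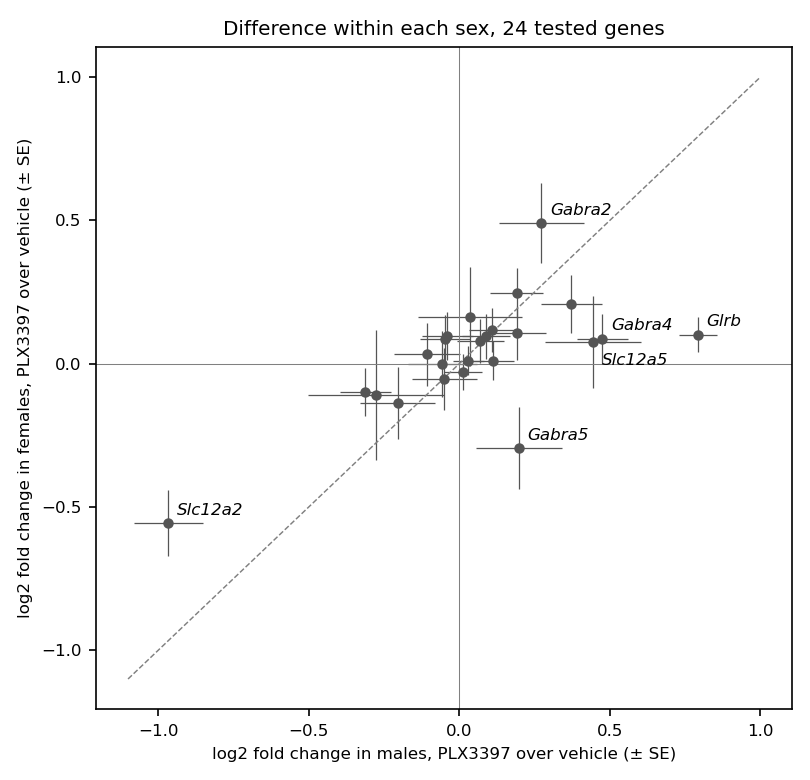
Log2 fold change, PLX3397 over vehicle, of the 24 tested members in males (horizontal axis) and females (vertical axis), with standard errors from edgeR (bars) and the line of equal values (dashed). Glrb lies at 0.79 in males and 0.10 in females, and Slc12a2 is negative in both sexes (-0.97 in males and -0.56 in females).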

How the data were processed

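RNA sequencing of ribosomal RNA-depleted total RNA gave 8 libraries, grouped by treatment and sex from the sample titles. The authors deposited, per the file headers, a count for each gene and library and an FPKM value beside it; a count of 0 is listed there at 0.0001 FPKM. Tools named, without roles, in the submitters' processing notes are HISAT2, StringTie, bcl2fastq 2.0, limma and DESeq2, with the build mm10; the counter and its strand setting were not given in the sources used here. Reads of overlapping genes could be assigned to either gene.

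Counts of genes with a mean of at least 0.5 FPKM were tested with edgeR 4.0.16 (R 4.3.3; quasi-likelihood F-test, two-sided, TMM scaling, sex as covariate) with Benjamini-Hochberg adjustment at 0.05. A model with the 4 sex and treatment groups gave the contrasts within sexes and the difference of those. Standard errors were computed as log2 fold change over the root of F. The method was checked on simulated counts. Alternatives included DESeq2 1.42.0 and limma 3.58.1. Total counts ran from 54115300 to 67487391, and a count of 0 allows 3 counts; this limit covers counting error alone. Libraries of the same group all differed by more than sampling noise. The labels do not state that each library is a separate mouse; if any are not, p-values measure technical spread.

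The members and the gene lists were chosen with earlier results of these data known. The genes named are every member, Csf1r, every gene of a pathway list that passed and up to 4 genes of each list with the smallest p, except a gene that is not reported here. Exon overlaps came from GENCODE vM21 and promoters from RefSeq.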

Additional observations from a re-analysis of the deposited data

Results flagged for a closer look

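In 4 of 52 groups of 4 libraries with values to test, a member's highest or lowest library lay farther from the rest than Dixon's 95% limit allows; chance alone gives about 1 in 20. Gabrd was at 0.594 FPKM in PLX3397 M1, where the other PLX3397 libraries were at 0.314 to 0.349 FPKM. Gabre was at 16.5 FPKM in PLX3397 M1, against 18.5 to 18.7 FPKM in the others. Glra3 was at 4.61 FPKM in PLX3397 M2, against 3.78 to 3.89 FPKM in the others, and those also lay above all vehicle libraries. Gad1 was at 30.2 FPKM in PLX3397 F1, against 34.0 to 34.2 FPKM in the others.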

How the results depend on the processing

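Over all 8 libraries 362 genes passed, against 79 with the replicate block, 1099 with DESeq2, 123 without both vehicle F1 and PLX3397 M2, and 138 (without vehicle M1) to 361 when a library was left out in turn. In females 61 passed, against 98 with the bias-adjusted quasi-likelihood, 424 with DESeq2 and 31 (without PLX3397 F2) to 83 on leaving out a library. In males 260 passed, against 834 with DESeq2 and 87 (without vehicle M2) to 243. For the difference between sexes 13 passed, against 144 with DESeq2 and 0 (without PLX3397 F2) to 19. The settings within each sex other than the bias-adjusted form, and DESeq2 for their difference, were added after the data were seen.

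The replicate labels were used as a block although same-labelled libraries deviated together little (correlations -0.0335 to 0.0341), so they share only a label; with the replicate block the Slc12a2 log2 fold change was -0.77 (edgeR adjusted p = 0.0721) and its call ended, as did those of Glul (edgeR adjusted p = 0.0886) and Nsf (0.113). Slc12a2 kept its sign throughout, from -0.87 to -0.68 on leaving out a library.

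Under the alternatives run, the sign of the log2 fold change turned for 8 members, all near 0. Gabbr2 was at 0.0028 with no filter and -0.035 to 0.033 on leaving out a library. Without both vehicle F1 and PLX3397 M2, Gabre was at -0.064 and Gabbr1 at -0.019. On leaving out a library Gabre ran from -0.018 to 0.073, Gabra5 from -0.16 to 0.051, Slc6a11 from -0.0029 to 0.086, Gabrb2 from -0.085 to 0.042, Gabrg3 from -0.084 to 0.047 and Gad1 from -0.11 to 0.015. The cause of these changes was not tested. Summed class levels moved by less than the spread between libraries when taken per count (CPM). Gabra6, Gabrd and Slc6a5 were below the expression minimum of the main fit. Depth limits Gabra6, with 0 counts, and Slc6a5, with 0 to 26 counts per library. Gabrd had 42 to 115 counts per library and a mean of 0.374 FPKM, so the minimum of 0.5 FPKM left it out. It lay above the alternative minimum of 0.1 FPKM, but its difference was not read there.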
